A study of Saccharomyces cerevisiae with 255 samples.

Results

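Budding yeast Pub1 tagged most of the abundant transcripts, and the transcripts described here are the abundant ones that it barely tagged. They were chosen by their values in the 4 libraries of intact Pub1: an expression of at least 100 RPM (reads of a gene after scaling each library to 1000000 reads) and a modification level below 0.05 after the libraries had been scaled and averaged. Of 6629 genes in the files, 1236 reached 100 RPM in Pub1, and 76 of these fell below 0.05, leaving 1160 other abundant genes. Because these same values chose the 76 genes, their low tagging by intact Pub1 is a description and not a finding.

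In RNA tagging, an RNA-binding protein (RBP) is fused at its own locus to Pup2, a poly(U) polymerase that adds uridines (Us) after the poly(A) tail of the transcripts the RBP meets. Reads carrying 4 to 13 Us are called tagged here, expression is the RPM over all lengths of 0 to 16 Us, and the modification level is the sum of U number times RPM over the tagged lengths, divided by expression. The study calls a transcript a target of an RBP above a modification level of 0.15. All strains were BY4741 cells growing exponentially in synthetic glucose medium. The Pub1 strain carried PUB1::Pub1-Pup2, and 15 other RBPs with intact sequence were used for comparison (51 libraries). Further strains carried Pub1-Pup2 with parts of Pub1 removed (17 libraries), namely the disordered regions ΔIDR_1, ΔIDR_2 and ΔIDR_3, the regions holding RNA-binding domains Δ2 and Δ4, and the versions ΔT1 and T2, the last under the title suffixes Trc6 and Trc9. The control was dPup2, a catalytically dead Pup2 fused to Puf3, Puf4 or Puf5 (7, 2 and 2 libraries), and all comparisons below share these 11 libraries. Where titles carry C1 or C2 these number clones, so some libraries of a strain come from the same clone, and p-values then measure only the spread between these libraries.

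Pub1 is a poly(U)-binding protein with RNA recognition motifs that is known to bind U-rich and AU-rich stretches, to protect a set of transcripts from decay and to enter stress granules. Puf3, Puf4 and Puf5 bind UGUA-containing sites after the stop codon. Puf3 is known in yeast for binding transcripts of nuclear-encoded mitochondrial proteins, and Puf4 for binding transcripts of ribosome assembly factors. Scp160 and Bfr1 associate with translating ribosomes, many of them at the endoplasmic reticulum (ER), and Sro9 is a La-motif protein.

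The depth was 1159093, 1319709, 429335 and 241734 reads in Pub1 libraries 1 to 4, between 93564 and 2887659 reads in the libraries of the 15 other RBPs, between 433099 and 3431594 in the Pub1 deletion strains, and between 181495 and 2917011 in dPup2. No 2 of the 66 libraries compared for the intact RBPs and dPup2 held identical counts. Binomial intervals below are exact 95% intervals and cover counting error only. For a count of 0 tagged reads, the largest share allowed was instead taken as 3 reads over the total, which lies below the exact limit.

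The 76 genes fell into 2 sets that differed in their read lengths, a split made after the values were seen. In 17 genes more than 50% of the Pub1 reads carried 16 Us, the longest length recorded and one that the modification level does not count, with 87.4% to 98.0% of reads at 16 Us in each. In the other 59 genes, called the mRNA members here, 3.97% to 11.9% of reads did. Summed over genes, 94.9% of the Pub1 reads of the 17 genes carried 16 Us, and so did 91.0% of their dPup2 reads. Only 25 of their 14490 Pub1 reads (0.173%) were tagged, and 0 of 51931 reads in dPup2.

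**Figure D1:**
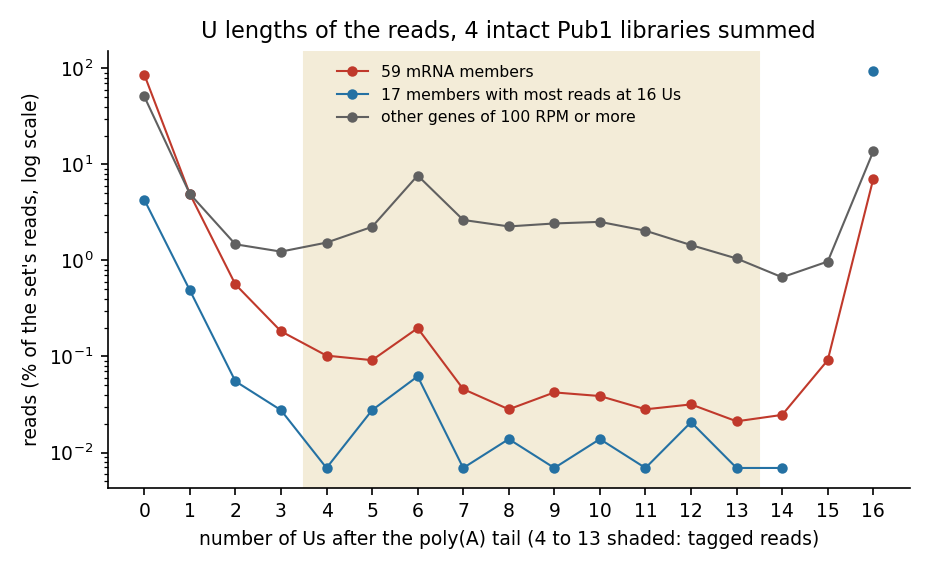
Share of reads (%, log y axis) at each number of Us (0 to 16, x axis) in the summed Pub1 reads of the 59 mRNA members, the 17 genes with mostly 16-U reads and the 1160 other abundant genes; lengths without reads are not drawn. The 59 mRNA members had 86.5% of reads without a U, against 51.2% in the other abundant genes, while the 17 genes had 94.9% of reads at 16 Us.

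Of the 17 genes, 14 were annotated, and these lay at the ribosomal DNA, in the mitochondrial genome and at small nucleolar RNA genes. At the ribosomal DNA, 9 lay within 2 kb of the rRNA genes of chromosome XII (XII:451786-489469, R64). YLR154C-G, the most abundant of all 76 genes at 3753 RPM, overlapped a copy of the 25S rRNA gene on its own strand, and YLR161W, YLR156W, YLR159W and YLR157W-E (585 to 730 RPM) each overlapped a 5S rRNA gene. The ribosomal DNA is repeated, so reads of its copies cannot be told apart and the values of these genes are uncertain. YGL088W (1036 RPM) overlapped SNR10 and IRC13 (415 RPM) overlapped SNR17A, a gene for the U3 small nucleolar RNA. COX1, AI2 and AI3 are encoded by mitochondrial DNA. YLR154W-F (1158 RPM), YLR154W-E (507 RPM) and YER137W-A (191 RPM) had no entry in the RefSeq annotation. The 17 genes were abundant in libraries 3 and 4 alone. YLR154C-G had 74.2, 37.1, 9498 and 5403 RPM in libraries 1 to 4, and the 17 genes together took 0.0271%, 0.0264%, 1.83% and 2.47% of reads. None of the 17 reached 100 RPM in library 1 or library 2, and none did once 16-U reads were set aside, as against 45 of the 59 mRNA members. Their share also varied between libraries of other strains, up to 7.44% in a Dhh1 library. None exceeded 0.15 in any of the 15 other RBPs. Most reads of these genes thus had a length that the modification level does not use, and the rest of the text is about the 59 mRNA members.

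The 59 mRNA members were tagged at a low level by intact Pub1. Of their 28400 reads, 178 were tagged (0.627%, interval 0.538% to 0.726%), against 25.8% of the reads of the other abundant genes. By library the share was 0.622%, 0.734%, 0.519% and 0.153% in the members and 22.8% to 28.1% in the other genes, so the ranges lay far apart in each library. The share in dPup2 was 0.0182% in the members (23 of 126583 reads) and 0.0122% in the other genes. The members were therefore not free of tags, since their share in Pub1 lay above that in dPup2, whose libraries ran up to 0.0330%.

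The members lay at the lower end of the abundant range, between 100.25 and 386 RPM with a median of 123 RPM, against a median of 227 RPM in the other abundant genes. Under 200 RPM there were 52 of the 59, and none of the 303 genes of 500 RPM or more was a member. Members were 25 of the 168 genes of 100 to 120 RPM, and 4 of the 150 genes in the range just below 500 RPM. Each member rested on 0 to 9 tagged reads (median 3) of 297 to 1265 reads, so single libraries scattered around the threshold. In libraries 1 to 4, 26, 27, 16 and 3 of the 59 had a level of 0.05 or more, and 7 of 59 stayed below it in all 4. The genes nearest the modification threshold were AIM20 (0.04996, 1 tagged of 297 reads) and VPH1 (0.0498, 9 of 1059) inside it, and SVS1 (0.0501, 5 of 671) and SRP14 (0.0511, 1 of 443) outside it. The genes nearest the expression threshold were ERB1 (100.25 RPM) and MPP10 (100.3 RPM) inside it, and NSA1 (99.97 RPM) and TRM9 (99.76 RPM) outside it. These neighbours differed by little and rested on few reads.

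**Figure D2:**
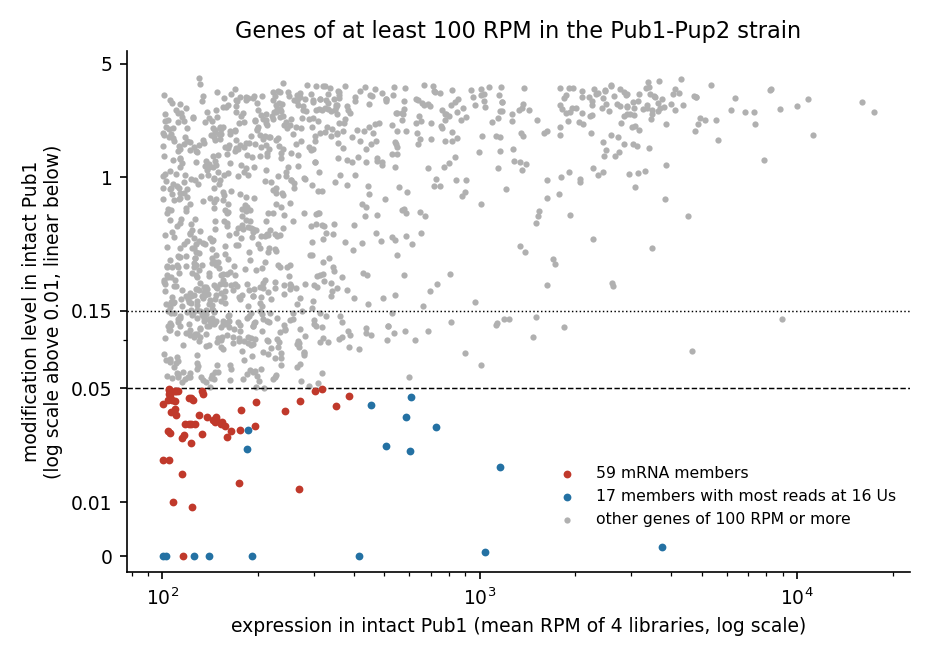
Modification level (y axis) against expression (RPM, log x axis) of the 1236 genes of at least 100 RPM in averaged intact Pub1, with the 59 mRNA members and the 17 genes with mostly 16-U reads in colour. The mRNA members lie between 100.25 and 386 RPM, and the 17 genes reach 3753 RPM.

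The most abundant of the mRNA members were RPB8 and CCT4. RPB8, a subunit shared by the nuclear RNA polymerases, had 417, 403, 398 and 327 RPM in Pub1 libraries 1 to 4, with modification levels of 0.0580, 0.00940, 0.105 and 0 (8 tagged of 1265 reads). CCT4, a subunit of the cytosolic chaperonin, had levels of 0.0137, 0.0733, 0.0566 and 0 (7 of 1133 reads, 353 RPM). Both genes were expressed at similar levels in all 4 libraries. VPH1, the vacuolar form of the membrane subunit a of the V-ATPase, averaged 319 RPM with 9 tagged reads, and VMA13, which encodes the V-ATPase subunit H, averaged 268 RPM with 3 tagged of 866 reads, all in library 2. CBR1, a cytochrome b5 reductase, averaged 302 RPM with 4 tagged of 969 reads. CCS1, the copper chaperone of superoxide dismutase, averaged 271 RPM with 7 tagged of 878 reads. RRB1, a chaperone of ribosomal protein L3, averaged 244 RPM with 6 tagged of 748 reads. EMC3 of the ER membrane complex and PRE6, a proteasome core subunit, averaged 197 and 196 RPM with 3 tagged reads each. FOL2, GTP cyclohydrolase of folate synthesis, was the member without a tagged read, 0 of 375 reads, which allows a share of up to 0.800%.

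By function, the members were spread over many cellular processes. Ribosome assembly was represented by RRB1, ERB1, CIC1, MPP10, RBP95, RRP7, RRT14, SDA1, UTP23, NAN1 and the AAA ATPase REA1, with RRP45 of the exosome beside them. Protein turnover and maturation were represented by the proteasome subunits PRE6, RPN5, RPN9 and RPT6, by the ubiquitin-conjugating enzyme UBC1, RAD23 and SHP1, and by NAT1, MAP2, CPR2 and HGH1. The secretory pathway and membranes contributed EMC3, SEC21 of the COPI coat, the Golgi enzymes GDA1 and KTR3, and the permeases FCY2 and LYP1. Mitochondrial members were COX17 and COX14 of cytochrome oxidase assembly, PAM18 and MIM1 of protein import, FIS1, the ribosomal protein RSM18 and ALD5. Nuclear members were RPB4, RFC3, SPT16, SEH1 and the arginine methyltransferase HMT1. The metabolic enzymes were NCE103, ASP1, FOL2, URA6, LYS12, PCM1 and LOG1, and the remaining genes were ARP2, GCN20, AIM20, LCL2 and MRP8.

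The shares of whole gene groups set these names against the rest. Of the 1236 abundant genes 59 were mRNA members, and 6.15% belonged to the 76. Proteasome genes supplied 4 of their 33 abundant genes (12.1%), with a group median modification of 0.141 in Pub1, against 0.684 for all abundant genes. V-ATPase genes supplied 2 of 16, Golgi glycosyltransferase genes 2 of 10, nutrient transporters 2 of 9 and mitochondrial ribosomal protein genes 2 of 9. These last are RSM18 and MRP8, and RefSeq describes MRP8 as a hypothetical protein once thought to belong there. None came from the 57 small-subunit and 80 large-subunit cytosolic ribosomal protein genes, the 18 abundant genes of glycolysis and fermentation or the 31 of translation factors, whose group medians were 2.41, 2.28, 2.55 and 0.980. Of the listed 60S and 40S assembly factors only ERB1 of 24 was a member. With the wider wording of RefSeq, a grouping added after the values were seen, ribosome assembly made up 9 of 59 members (15.3%) and 99 of the 1160 other genes (8.53%). By the same wording, mitochondria made up 11 of 59 members (18.6%, MRP8 included) and 170 of the 1160 other genes (14.7%). That wording counted the proteasome subunit PRE6, and AIM20, CBR1 and LYS12, but not COX17. For ribosome assembly it left out NAN1 and REA1, so both counts differ from the list by function above. Membership was read from Pub1, so these counts describe the set and carry no test.

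The members shared a feature that the rule did not use, fewer T runs after the stop codon (T in the genome, U in the RNA). In the 100 nt after the stop codon, a run of 5 or more Ts occurred in 10 of 59 members (16.9%) and in 598 of 1154 other abundant genes with an annotated sequence (51.8%). The median T content of this window was 32% in the members and 38% in the others, and the median longest run was 3 and 5 Ts. The share increased with modification among the other genes, from 21.1% of those between 0.05 and 0.15 to 71.1% of those above 1. At matched expression of 100 to 200 RPM, the share was 19.2% of 52 members and 46.3% of 505 other genes. The feature was not universal, since GCN20 held a run of 11 Ts and CIC1 one of 7. Within 50 nt the shares were 5.08% in members and 29.8% in the others, and within 200 nt 39.0% and 75.2%. GC content of the window (30% and 29%) and the share of proteins with a hydrophobic stretch of 19 residues (27.1% and 26.5%) were nearly the same in members and others, while the coding length was longer in the members (median 1116 and 784.5 nt). No test was made of these features, and Pub1 binding at such runs was not measured here.

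**Figure D3:**
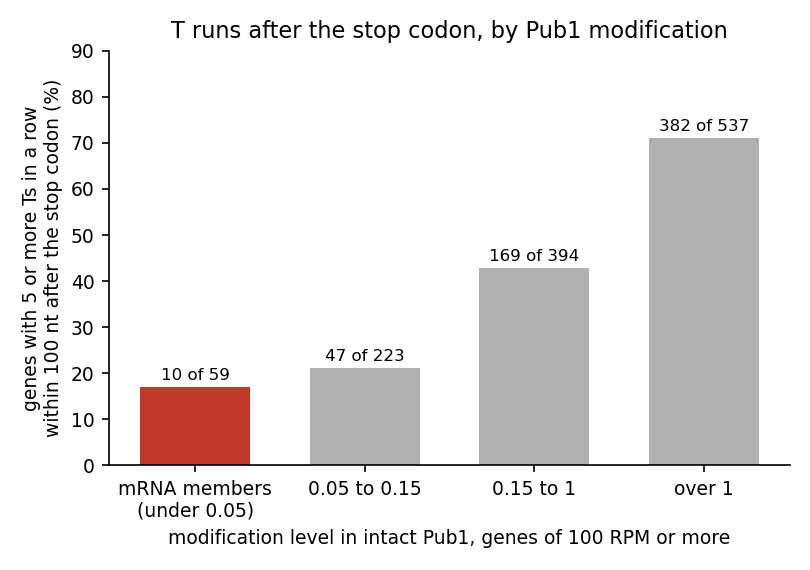
Share of genes (%, bars from 0) with 5 or more Ts in a row in the 100 nt after the stop codon, for the 59 mRNA members and for the other abundant genes by modification level in intact Pub1. The share is 16.9% in the members and reaches 71.1% in genes above 1, with the counts above each bar.

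Other RBPs tagged part of the members. Across the 15 other RBPs, 20 of 59 members (33.9%) exceeded 0.15 in at least 1 RBP, against 838 of 1160 other abundant genes (72.2%), and 5 (8.47%) did so in 2 or more, against 423 (36.5%). These shares were not matched for expression, which was lower in the members. For a test, the tagged reads of each gene were set against those in dPup2 in a quasi-likelihood fit of edgeR. The offset was the gene's total reads. Benjamini-Hochberg adjustment covered only the genes tested, from 36 in Tis11 to 723 in Sro9. Genes needed 10 tagged reads, which they seldom had without an RBP that tagged them, so nearly every tested gene was called. The adjusted p-values below therefore add no support, and only the sizes are informative. In all 39 member and RBP pairs that had enough reads, the tagged share was above dPup2, and these involved 26 of the 59 members and 9 of the 15 RBPs. The other 33 members had fewer than 10 tagged reads in each comparison.

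**Figure D4:**
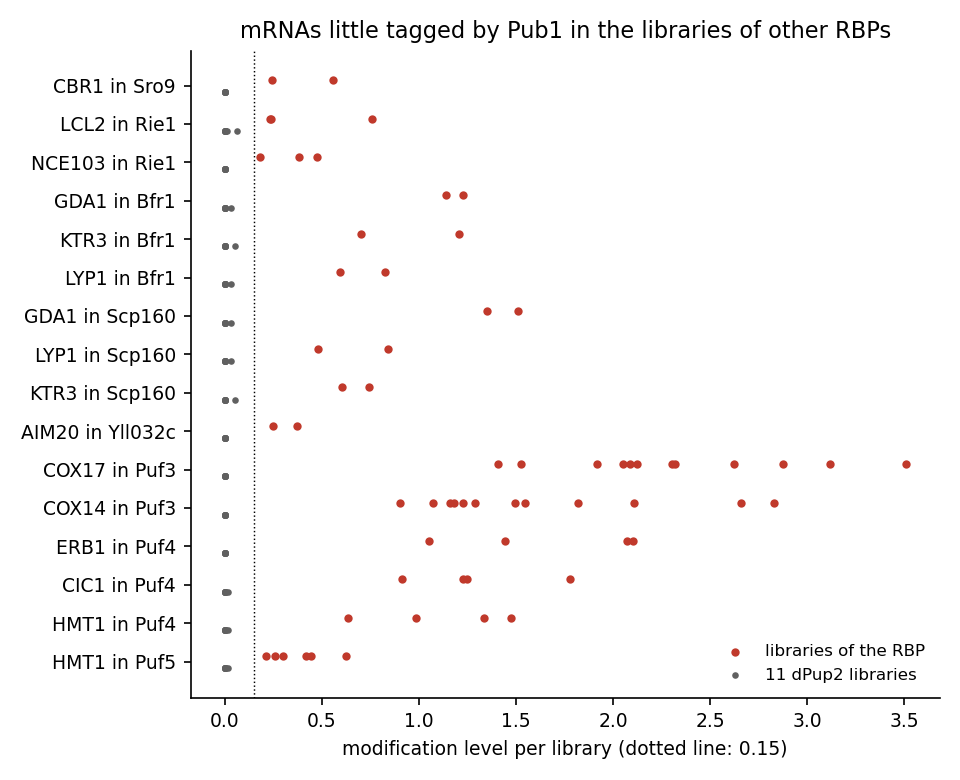
Modification level per library (x axis) of 12 mRNA members in the RBP that tagged them (upper points) and in the 11 dPup2 libraries (lower points), with the target threshold of 0.15 as a dotted line. The pairs were chosen as up to 3 called members per RBP of the highest level among those above 0.15 in every library of the RBP with 30 reads of the gene, and COX17 in Puf3 reaches the highest levels.

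Puf3 gave the highest levels of any member. It called 4 mRNA members, beside YGL088W of the 17 genes (17 tagged of 905 reads), while 84.9% of all genes tested in Puf3 were called, and this was 6.78% of the 59 members against 16.6% of the other abundant genes. A call needed 10 tagged reads, and the members lay lower in expression than the others. The share above 0.15 was 6.78% in the members and 3.45% in the others (7.69% and 4.73% at 100 to 200 RPM). COX17, the copper metallochaperone of cytochrome oxidase, had a modification level of 2.54, with libraries between 1.41 and 3.51 (median 2.21, n = 12) against 0 in every dPup2 library. Of its reads 26.4% were tagged in Puf3 (1588 of 6006) and 0 of 2636 in dPup2, at least 232-fold higher with the dPup2 count set at the limit of 3 reads over all 11 libraries (edgeR log2 fold change 9.58, adjusted p = 7.59e-21). An approximate SE of 0.41 was obtained by dividing the log2 fold change by the square root of the F statistic of the test. COX14, an assembly factor of cytochrome oxidase, had 1.76, with libraries from 0.905 to 2.83, and 496 of 2521 reads tagged against 0 of 1386 in dPup2 (at least 90.9-fold higher, edgeR adjusted p = 4.77e-16). PAM18, a motor subunit of the mitochondrial import machinery, had 0.404 and RSM18 0.213, exceeding 0.15 in 11 and 4 of the 12 libraries. For RSM18 1 library at 0.940 held 34 of the 65 tagged reads, the median library was at 0.0923, and the level was 0.117 without that library. These 2 genes, and others below that were not among the most abundant or the highest per RBP, were picked out after their values were seen. COX17 and COX14 supplied 89.4% of the tagged reads of all members in Puf3. Without both, the members' tagged share in Puf3 was 0.188%, against 1.66% with them.

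All 4 carry the Puf3 motif TGTANATA within 300 nt after the stop codon, as RefSeq gives the R64 genome. The motif was searched on the sense strand, and the 10 flanking bases on each side are in lower case with the motif in capitals. They are shown because they are the members that Puf3 tagged and Pub1 barely tagged.
COX17 first site (XII:131156-131183, minus strand, 32 nt after the stop codon): aaccatttctTGTATATAtaagaatagg
COX17 second site (XII:131111-131138, minus strand, 77 nt after the stop codon): atatactaccTGTAAATAtgtgcgatgc
COX14 (XIII:14382-14409, minus strand, 142 nt after the stop codon): tttacgaaccTGTATATAataattaaat
PAM18 (XII:165417-165444, minus strand, 143 nt after the stop codon): agataagtctTGTAAATAacacggaaag
RSM18 (V:253887-253914, minus strand, 67 nt after the stop codon): tagttctgtcTGTAAATAtacaatatgt
The motif was present in 9 of 59 members (15.3%), in 193 of 1154 other abundant genes (16.7%) and in 972 of 5926 genes of RefSeq (16.4%). NAT1, RRP45, CCS1, UTP23 and CIC1 also held it, with modification levels in Puf3 between 0 and 0.0123, so a match of these letters did not go with tagging in every member.

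The altered Puf3 strains gave values that the choice of members did not use. COX17 had 0 of 2034 reads tagged in 3 libraries without the RNA-binding domain (Puf3_ΔRBD), which allows a share of up to 0.147%, against 26.4% in intact Puf3. COX14 had 0 of 431 reads tagged there, allowing up to 0.696%. In the other Puf3 versions (T1 to T6, both forms of T7, ΔIDR and Δnon-RBD) COX17 ranged from 1.32 to 3.47 and COX14 from 1.44 to 2.48. RSM18, with 0.213 in intact Puf3, had 1.27 in Δnon-RBD, where its 3 libraries lay between 0.609 and 1.51, against a range of 0 to 0.940 in the 12 intact libraries. The ranges overlapped, and no test was made between these strains. COX17 and COX14, and the genes followed below in altered Puf4, Puf5, Scp160 and Rie1 strains, were named for high levels in the intact RBP. Part of any lower value in the altered strains is therefore set by that choice.

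Puf4 called 7 members, 11.9% of the 59 against 25.5% of the other abundant genes, where 93.6% of the genes tested were called. The share above 0.15 was 8.475% in the members and 8.448% in the others (9.62% and 7.10% at 100 to 200 RPM). ERB1, a factor of large-subunit maturation and the member nearest to the expression threshold, had modification levels of 2.10, 2.07, 1.05 and 1.44 in the 4 Puf4 libraries against 0 in all dPup2 libraries. Its tagged reads were 130 of 659 in Puf4 and 0 of 1332 in dPup2 (at least 87.6-fold higher, edgeR adjusted p = 1.42e-06). CIC1, another large-subunit assembly factor, had levels of 1.23, 1.78, 0.915 and 1.25 in Puf4, with 209 of 1288 reads tagged against 1 of 1782 in dPup2 (edgeR adjusted p = 9.76e-11). HMT1, the main arginine methyltransferase of yeast, had 0.986, 1.48, 0.636 and 1.34 in Puf4, with 174 of 1096 reads tagged against 1 of 2053 in dPup2 (edgeR adjusted p = 2.95e-10). The libraries of Puf4 and dPup2 did not overlap for any of the 3 genes. These genes were chosen as above 0.15 in every Puf4 library, so the lack of overlap adds no support. HMT1 was also called in Puf5, with 0.348 (6 libraries from 0.210 to 0.626) and 78 of 1575 reads tagged (edgeR adjusted p = 1.08e-11). Puf5 called 2 members (3.39%), HMT1 and RPB8 (0.0252), with 68.3% of the genes tested there called. HGH1 had 0.288, LYP1 0.186, RPB8 0.109 and FCY2 0.0390 in Puf4, all called. CIC1, HMT1 and ERB1 supplied 77.0% of the members' tagged reads in Puf4, and the share was 0.268% without them, against 1.11% with them.

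The Puf4 motif TGTANANTA occurred within 300 nt after the stop codon on the sense strand in 12 of 59 members (20.3%), 161 of 1154 other abundant genes (13.95%) and 513 of 5926 genes of RefSeq (8.66%), and CIC1 held both motifs at separate positions. Of the 7 called members 6 held it, and the sites of the 4 with levels above 0.15 are shown with the motif in capitals.
ERB1 (XIII:368053-368081, minus strand, 23 nt after the stop codon): aagtagatatTGTATAATAacgcccaaga
CIC1 (VIII:212075-212103, plus strand, 107 nt after the stop codon): atgtttgaagTGTATATTAaaaataaagt
HGH1 (VII:870179-870207, minus strand, 35 nt after the stop codon): agcatagaatTGTATAATAcagaaataac
LYP1 (XIV:140481-140509, plus strand, 106 nt after the stop codon): ccaaactttaTGTATAATAtcaccactta
ERB1, HGH1 and LYP1 hold the same 9 bases in capitals, with levels of 1.55, 0.288 and 0.186 in Puf4. RPT6, SEH1 and RRB1 hold these 9 bases too, with 0.0127, 0.00376 and 0 in Puf4, and were not called. The called RPB8 and FCY2 held other forms of the motif, and so did GDA1, PCM1 and REA1, which had 0.0241, 0 and 0.0429 in Puf4 and were not called. HMT1, the seventh called member, held neither motif in this window.

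The altered Puf4 strains gave 0 tagged reads for ERB1 without the RNA-binding domain (Puf4_ΔRBD, 0 of 576 reads, allowing up to 0.521%), in T4 (0 of 222, up to 1.35%) and in T4&ΔIDR (0 of 270, up to 1.11%), against 19.7% in intact Puf4. ERB1 kept levels of 0.841, 0.511, 1.24 and 0.929 in T1, T2, T3 and ΔIDR. CIC1 had 1 tagged read in each of T4 (of 397) and ΔRBD (of 936), and HMT1 none in T4 (of 356) or ΔRBD (of 833), so the 3 genes were low in the same strains. HMT1 in Puf5_ΔRBD had 0 of 642 reads tagged (up to 0.467%), against 4.95% in intact Puf5, and 0.256 to 0.939 in the other Puf5 versions.

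Scp160 and Bfr1 tagged members that encode membrane and Golgi proteins. Each called 6 of the 59 members (10.2%), against 16.98% of the other abundant genes in Scp160 and 14.3% in Bfr1, while 91.5% and 88.2% of the genes tested were called. GDA1, the guanosine diphosphatase of the Golgi, had 1.51 and 1.35 in the 2 Scp160 libraries and 1.23 and 1.14 in the 2 Bfr1 libraries, against 0.0323 at most in a dPup2 library. Its tagged reads were 135 of 718 in Scp160 and 109 of 660 in Bfr1, against 1 of 2496 in dPup2 (edgeR adjusted p = 7.65e-09 and 1.44e-12). KTR3, a mannosyltransferase of the Golgi, had 0.666 in Scp160 and 0.960 in Bfr1 (edgeR adjusted p = 2.64e-08 and 1.81e-10). LYP1, the lysine permease of the plasma membrane, had 0.676 and 0.702 (edgeR adjusted p = 4.61e-07 and 4.50e-09). The purine-cytosine permease FCY2 (0.309 in Scp160 and 0.115 in Bfr1, with Bfr1 libraries of 0.0374 and 0.196), VPH1 (0.217 and 0.167) and EMC3 (0.132 and 0.107) completed both lists, so the 6 genes called in Scp160 and in Bfr1 were the same in this edgeR fit. DESeq2 called 3 in Scp160 and 4 in Bfr1, with any pair lacking an adjusted p counted as not called. GDA1, KTR3 and LYP1 supplied 71.2% of the members' tagged reads in Bfr1, and the tagged share was 0.287% without them, against 0.944% with them. GDA1, KTR3 and VPH1 supplied 71.4% in Scp160, where the share was 0.362% without them, against 1.15% with them. GDA1 had 0.513 or less in each of the 5 altered Scp160 strains, with 0.204 in Δ6 and 0.168 in ΔIDR_3, against 1.41 in intact Scp160. LYP1 had 0.0389 in Δ6 but 1.11 in ΔIDR_1 (2 libraries of 0.776 and 1.33), against 0.676 in intact Scp160 (0.478 and 0.840).

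Sro9, which tags many of the abundant genes, called 9 members (15.3%) against 56.5% of the other abundant genes, with 99.6% of the genes tested called. Its median modification was 0.0334 in the members and 0.162 in the other genes, and at 100 to 200 RPM 2 of 52 members and 138 of 507 other genes exceeded 0.15. CBR1 had 0.243 and 0.556 in the 2 Sro9 libraries against 0 in each dPup2 library, and 34 of 809 reads were tagged against 0 of 4721 (at least 66.1-fold higher, edgeR adjusted p = 3.04e-24, DESeq2 adjusted p = 0.0637). The second Sro9 library was shallow at 93564 reads, so that CBR1 had 3 tagged of 36 reads in it. CCS1 had 0.336 in Sro9 (15 of 560 reads), with 0.1499 in the first library and 0.455 in the second, which had 3 tagged of 33 reads, and the other 7 called members lay between 0.0501 (COX17) and 0.111 (MIM1). MPP10 (0.798) and PCM1 (0.602) exceeded 0.15 in Sro9 on 1 and 8 tagged reads, fewer than the test required. All 9 calls rest on the first Sro9 library: the second held 8 tagged reads over all members, and 0 members were called on it alone.

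The remaining RBPs tagged few members or none. Rie1 called LCL2 and NCE103 (3.39% of members against 31.0% of the others, with 99.8% of genes tested called). At 100 to 200 RPM the share above 0.15 in Rie1 was 3.85% in the members and 10.06% in the others. LCL2 had 0.234, 0.759 and 0.241 in the 3 Rie1 libraries, with 16 of 259 reads tagged against 2 of 1420 in dPup2 (edgeR adjusted p = 1.38e-09). NCE103, the carbonic anhydrase of yeast, had 0.183, 0.382 and 0.478 in Rie1, with 18 of 398 reads tagged against 0 of 1665 (at least 25.1-fold higher, edgeR adjusted p = 1.01e-08, DESeq2 adjusted p = 0.0652). Without Rie1 library 3, LCL2 and NCE103 each had fewer than 10 tagged reads and were not tested. In the 5 altered Rie1 strains, LCL2 reached at most 0.0710 and NCE103 at most 0.0772. Both genes were chosen as high in intact Rie1, so part of this fall is set by that choice. Nsr1 called VMA13 (0.110) and CBR1 (0.0745), 3.39% of members against 30.5% of the others, with 99.4% of genes tested called. The share above 0.15 at 100 to 200 RPM was 0% in the members and 7.89% in the others. Without Nsr1 library 2 neither gene had 10 tagged reads, so neither was tested. Without library 1 only VMA13 was tested, and it was called. Yll032c called AIM20 (0.250 and 0.375 in its 2 libraries, 12 of 248 reads against 0 of 1259, at least 20.3-fold higher, edgeR adjusted p = 0.000135), with 61.7% of genes tested called. With either library left out, AIM20 had fewer than 10 tagged reads and was not tested. In Mrn1, Nab6, Pbp2, Ngr1, Tis11 and Gbp2 no member had 10 tagged reads, so none was tested. Of the genes tested there, 96.4%, 95.5%, 70.6%, 50.7%, 11.1% and 12.2% were called.

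**Figure D5:**
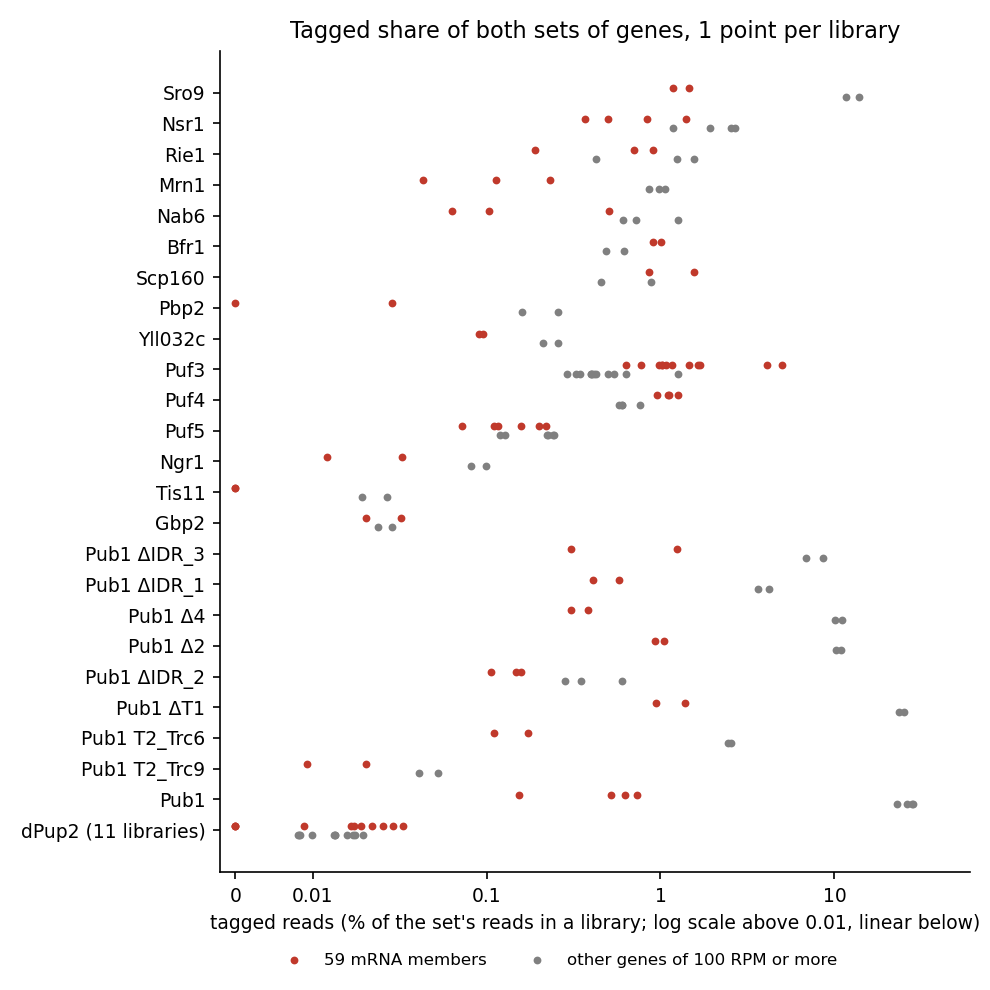
Tagged reads as a share of the reads of a gene set (%, x axis, log above 0.01 and linear below) in each library, for the 59 mRNA members and the 1160 other abundant genes, by RBP, Pub1 deletion strain and dPup2. The members lie below the others in Sro9 (1.46% and 1.19% against 11.6% and 13.8%) and above them in Bfr1 (1.002% and 0.911% against 0.617% and 0.489%), where GDA1, KTR3 and LYP1 held 71.2% of the members' tagged reads. By number of genes, 6.78% of the members and 8.88% of the others exceeded 0.15 in Bfr1.

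The strains of altered Pub1 came from libraries that did not choose the members. The members' tagged share was 1.39% and 0.945% in the 2 ΔT1 libraries, against 25.1% and 23.5% in the other abundant genes. It was 1.04% and 0.934% in Δ2, against 10.9% and 10.2%, and 0.306% and 0.381% in Δ4, against 10.1% and 11.1%. In ΔIDR_1 it was 0.577% and 0.408%, against 4.19% and 3.62%, and in ΔIDR_3 0.307% and 1.24%, against 6.86% and 8.56%. In each of these strains the members stayed below the others by a wide gap. In ΔIDR_2 the gap in tagged share was narrow, with 0.158%, 0.106% and 0.147% in the members and 0.284%, 0.597% and 0.349% in the others. In T2 the members' share was 0.110% and 0.172% against 2.55% and 2.46% for Trc6, and 0.0204% and 0.00922% against 0.0529% and 0.0410% for Trc9. In ΔT1 3 of 59 members exceeded 0.15 (5.08%), against 68.2% of the other abundant genes. These were COX17, with the highest level of 0.368 (0.709 and 0.0862 in the 2 libraries), UBC1 with 0.239 (0.389 and 0.109) and UTP23 with 0.220 (0.111 and 0.343). COX17 also had 0.237 in ΔIDR_3, with 0 and 0.407. GDA1 had 0.207 in Δ2 (0.272 and 0.133, on 28 and 17 tagged reads), and REA1 had 0.192 in T2 Trc6 (0.348 and 0, on 1 tagged read). Since the members were chosen as low in intact Pub1, part of any higher value elsewhere is set by that choice, and these values carry no test.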

How the data were processed

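RNA was poly(A)-selected, ligated to a 3′ adapter, fragmented with Tn5 and sequenced in pairs. The authors aligned read 1 to R64-1-1 with Bowtie2, counted Us on read 2 with their own script and, with bedtools, counted sense reads from 300 nt before to 100 nt after the termination site. The deposited values are raw read counts per gene and U number (0 to 16), and how molecular identifiers entered them is not given in the sources used here. The last 17 columns were used.

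Each library was scaled to 1000000 reads and averaged per strain. Tagged reads (4 to 13 Us) of each of 15 RBPs were tested against 11 dPup2 libraries with edgeR 4.0.16 (R 4.3.3), with the log of a gene's reads as offset, where a gene reached 10 tagged reads in sum and averaged 16 RPM or more. DESeq2 1.42.0, other thresholds, blocks and left-out libraries were tried. Named genes were the 20 of highest RPM, up to 3 called per RBP (above 0.15 in every library with 30 reads) and those at the thresholds. Members and gene lists were chosen with earlier results of these data known. RefSeq R64 gave names and sequences (73 of 76 genes matched), and the fit was tested on simulated data.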

Additional observations from a re-analysis of the deposited data

Results flagged for a closer look

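Levels above 0.15 on few tagged reads appeared in libraries outside the 16 RBPs used above, in Pbp1, an RBP of the 18 others with intact sequence. CIC1 had a modification level of 0.268 there, with libraries from 0 to 0.731 on 3 tagged reads, and COX17 had 0.227, with libraries from 0 to 0.833 on 4 tagged reads. Both were picked for exceeding 0.15 and every dPup2 library on at least 3 tagged reads, so that comparison adds no support. No library stood far from the rest in the 14 sets of values of 4 to 10 libraries that were checked, where chance alone gives about 1 in 20.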

How the results depend on the processing

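The number of genes, 76, followed the thresholds: it was 33 below a modification of 0.03, 177 below 0.1, 243 at 50 RPM and 17 at 200 RPM, and 0 with 4 to 16 Us counted as tags. Reads with 16 Us made up 7.09% of the mRNA members' reads in Pub1 and 6.17% in dPup2, so most occurred without an active Pup2. Alternatives chosen after seeing the data gave 97 genes from Pub1 libraries 1 and 2 alone (27 shared with the 76), 88 from libraries 3 and 4 alone (57 shared) and 61 from reads of 0 to 15 Us (48 of the 59 mRNA members and none of the 17). Leaving out 1 Pub1 library gave 81 to 99, of which 51 to 66 were among the 76 (38 to 49 of the 59 mRNA members). Summing the reads of the 4 libraries gave 76 genes, of which 47 were shared (38 mRNA members). The count of members above dPup2 was 0 for Sro9, 1 for Rie1, 3 for Scp160, 4 for Bfr1 and 0 for Yll032c by DESeq2. DESeq2 gave no adjusted p for 13 member and RBP pairs, AIM20 in Yll032c among them. Such pairs were counted as not called, so these lower counts are not all failed tests. Leaving out 1 library gave 0 to 9 for Sro9 (0 without library 1), 0 to 2 for Nsr1 (1 without library 1, 0 without library 2), 0 to 2 for Rie1 (0 without library 3) and 0 for Yll032c. Where a left-out library gave 0, no member had 10 tagged reads, so none was tested. DESeq2 lost CBR1 in Sro9 (adjusted p = 0.0637) and NCE103 in Rie1 (adjusted p = 0.0652). The cause was not tested. The share of members with a T run was 5.08% within 50 nt and 39.0% within 200 nt, by the shorter or longer window. The title numbers did not pair libraries (38 of 78 same-numbered pairs had a correlation of deviations over 0.1). With the number as replicate block the count was 7 for Sro9, 5 for Scp160, 6 for Bfr1, 7 for Puf4, 5 for Puf3, 2 for Nsr1, Rie1 and Puf5, and 1 for Yll032c. Members rest on few tagged reads, and differences of 1 or 2 reads were not detectable at this depth.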
